A study of Homo sapiens with 6 samples.

Results

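The 56 genes described here encode proteins that transcribe ribosomal RNA or build ribosomes: RNA polymerase I (Pol I) and its factors, the core proteins of the small nucleolar RNA particles, and the assembly factors of the small (40S) and large (60S) subunits. They were taken by gene symbol from a table of 58302 genes, in which each of the 56 symbols has 1 row and all are protein coding. They were picked by role and not by a threshold on a measured value, though earlier results of these data were known. The cells were MDA-MB-231-DR. This line resists doxorubicin and derives from MDA-MB-231, an established triple-negative breast cancer line. In the methods, resistant lines were kept in medium with a low concentration of doxorubicin, and whether the drug was present in these cultures is not stated. There were 3 control libraries and 3 libraries of cells treated with cyperotundone (CYT), a compound of sedge plants. The dose and the treatment time for RNA sequencing are not given in the sources used here. The question was which genes CYT changes in the resistant cells.

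In human cells, Pol I transcribes the ribosomal RNA genes into a long precursor inside the nucleolus. Box C/D and box H/ACA particles guide its methylation and pseudouridylation, a large complex called the small-subunit (SSU) processome folds and cuts the part that becomes 18S rRNA, and separate factors shape the 60S part before both subunits leave the nucleus. The pathway is known for its high activity in growing tumour cells, and many of its genes are known targets of MYC. The data hold the mRNA of these factors. They hold no measure of rRNA synthesis, since mRNA was separated and the authors removed rRNA reads.

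The control libraries held 14050849 to 17770102 counts, and the CYT libraries 13056270 to 14106017. The 4 genes checked as typical of the line (VIM, CD44, AXL, MSN) summed to 4129 to 4610 CPM in control and 2101 to 2277 CPM in CYT. Their edgeR log2 fold changes differed, with -1.30 for VIM (adjusted p = 0.00535), -0.82 for AXL (0.0444), -0.73 for MSN (0.0929) and -0.19 for CD44 (0.639). The leukocyte markers summed to 0.213 to 1.36 CPM in control and 4.04 to 4.33 CPM in CYT. Of these, the T cell marker CD3E had no count in any library, PTPRC had 0 counts in every control library and 7, 2 and 2 in CYT, and the monocyte marker CD14 rose from 10, 4 and 19 counts to 51, 59 and 49 (edgeR log2 fold change 2.43 with adjusted p = 0.0157). The 8 luminal markers summed to 672 to 1156 CPM in control and 210.1 to 522 CPM in CYT, mostly from keratins that the line expresses, and ESR1, PGR and EPCAM, which define luminal cells, stayed near 0. The part of these marker levels in the results was not tested. The level of a gene is given in CPM, its count divided by the TMM-scaled library size, and levels of different genes are compared only in FPKM, which is per length. Both are shares of the mRNA in a library, so less mRNA of a gene per cell and more of all other mRNA cannot be told apart.

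After CYT treatment, 14 of the 56 genes fell and 1 rose in edgeR's quasi-likelihood test, with a Benjamini-Hochberg adjusted p under 0.05 over all 15572 genes tested. That is 25% lower and 1.79% higher, where 12.9% of all genes tested were lower and 15.7% higher, and 14.6% and 12.5% of the protein-coding ones. At an unadjusted p under 0.05 in either direction, 21 of the 56 genes passed (37.5%), a share near the 40.9% of all genes. The genes that fell were NOB1, RRP1B, RRP1, RRS1, POLR1B, BOP1, NAT10, LTV1, DKC1, TCOF1, NOP14, PPAN, WDR43 and NOP2, by 2.05-fold (NOP2) to 3.82-fold (NOB1). UTP3 rose, by 2.40-fold. All 15 also changed by more than 1 on the log2 scale, and 12.2% of all genes met both this and the adjusted p as lower and 15.2% as higher. The other 41 genes were not called. SE stands for the standard error of a log2 fold change. All 56 passed the filter on low counts, with 95 counts or more in every library, so the depth did not keep any gene from being tested.

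The calls were repeated under 16 alternatives of normalization, filter, tool and design, and 7 of the 14 genes that fell were called in each of them (NOB1, RRP1B, RRP1, RRS1, POLR1B, NAT10 and LTV1). A replicate block, a term for the replicate number shared by a control and a CYT library, raised the number called lower to 20 (35.7%, with 19.8% of all genes). Leaving out control replicate 1, control replicate 3 or CYT replicate 3 left 8 genes called lower each time, with 7.41%, 7.36% and 7.63% of all genes.

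The median log2 fold change of the 56 genes was -0.32, against 0.01 for all genes tested and -0.07 for the 12755 protein-coding genes among them. Of the 56, 39 had a negative log2 fold change and 17 a positive one. In 22 genes (39.3%) every CYT library lay below every control library, and in 3 genes (5.36%) above, where 22.8% and 23.3% of all genes did so, and 25.3% and 19.6% of the protein-coding ones. For any 1 gene, permuting 3 and 3 libraries exactly allows no two-sided p under 0.1. Summed, the 56 genes took 0.741% to 0.790% of the counts of a control library, against 0.585% to 0.711% in CYT. The lowest CYT share, 0.585%, belonged to replicate 1 and the highest, 0.711%, to replicate 2.

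**Figure D1:**
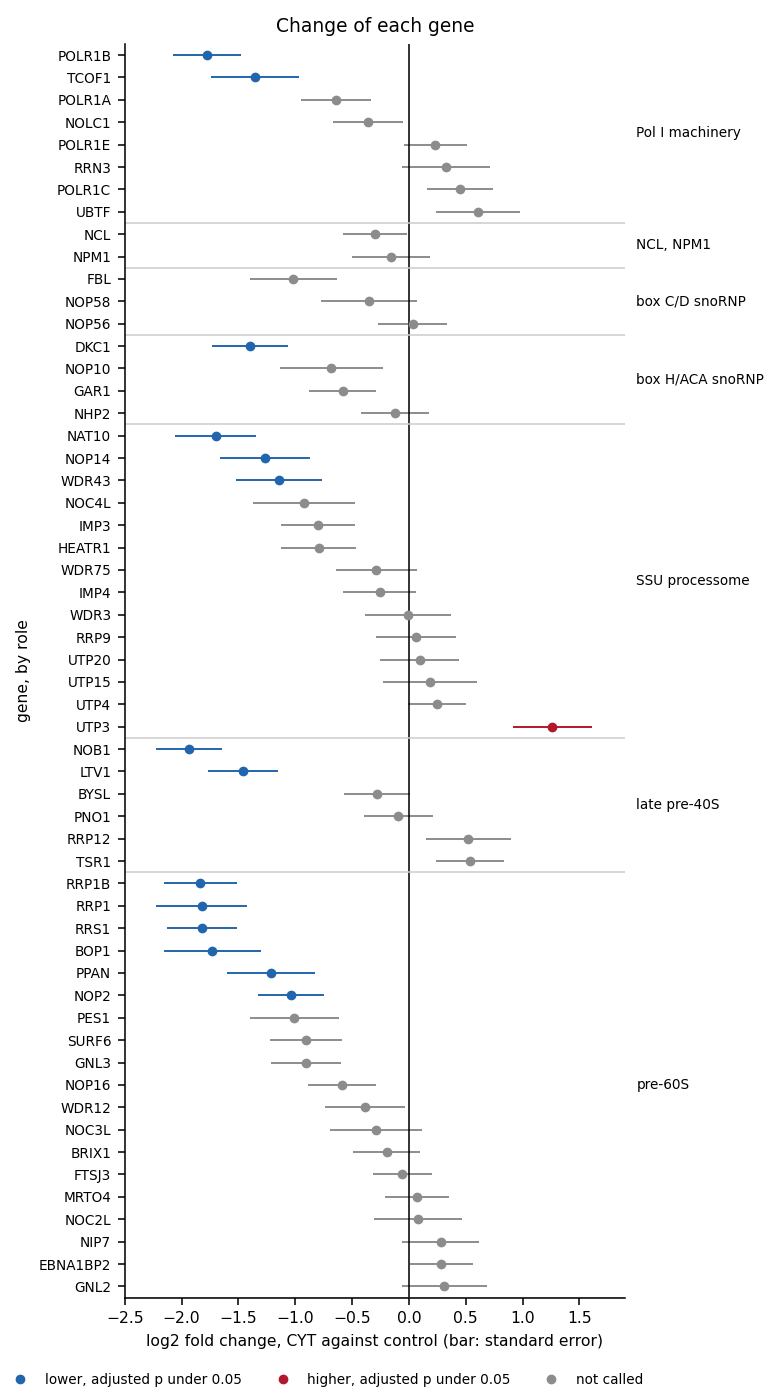
Log2 fold change of CYT against control (x axis) for each of the 56 genes (y axis, grouped by role), with bars for the standard error from 3 libraries a group. The 14 blue points are genes called lower, the red point is UTP3, and grey points were not called. Blue points occur in the Pol I, box H/ACA, SSU processome, late pre-40S and pre-60S groups.

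**Figure D2:**
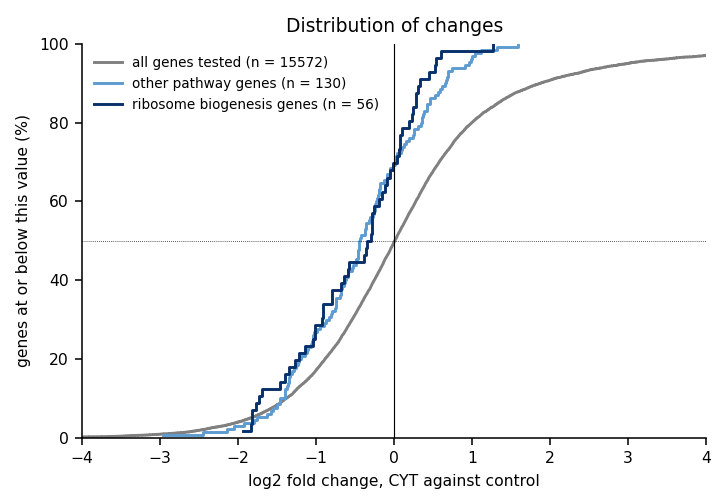
Cumulative share of genes (y axis, %) by log2 fold change (x axis) for all 15572 genes tested, for 130 other genes of the pathway and Pol III, and for the 56 genes. The curves of the 56 and the 130 genes cross 50% at -0.32 and -0.45, left of all genes at 0.01, and the 56 genes end at 1.26.

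CYT replicate 2 stood apart from the other CYT libraries, in these genes and over all genes. The correlation of its log2 CPM with CYT replicates 1 and 3 was 0.848 and 0.868 across the 56 genes and 0.914 and 0.913 across all genes, where those replicates gave 0.988 and 0.976 with each other. It was the highest of the 3 CYT libraries in 25 of the 56 genes and the lowest in 28. Its log2 CPM, as the deviation from the CYT mean, ran against the exonic GC content of the gene, with a Spearman rho of -0.88 across the 56 genes, which are not independent replicates. The rho was 0.78 in CYT replicate 1 and 0.84 in CYT replicate 3. In control, it was -0.67 in replicate 2, 0.61 in replicate 1 and 0.14 in replicate 3. The deviations of a gene within a group cancel out, so the rho of the 3 libraries of a group depend on each other. Without CYT replicate 2, 18 of the 56 genes were called lower and 2 higher, with 17% of all genes lower and 18.6% higher in that fit, and the median of the 56 genes was -0.56 beside -0.04 for all genes. With GC content and transcript length corrected for, 23 genes were called lower (41.1%, with 22.2% of all genes) and UTP3, UBTF and RRP12 higher (5.36%, with 23.9% of all genes). All 14 genes called lower were also called lower in both of these fits.

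**Figure D3:**
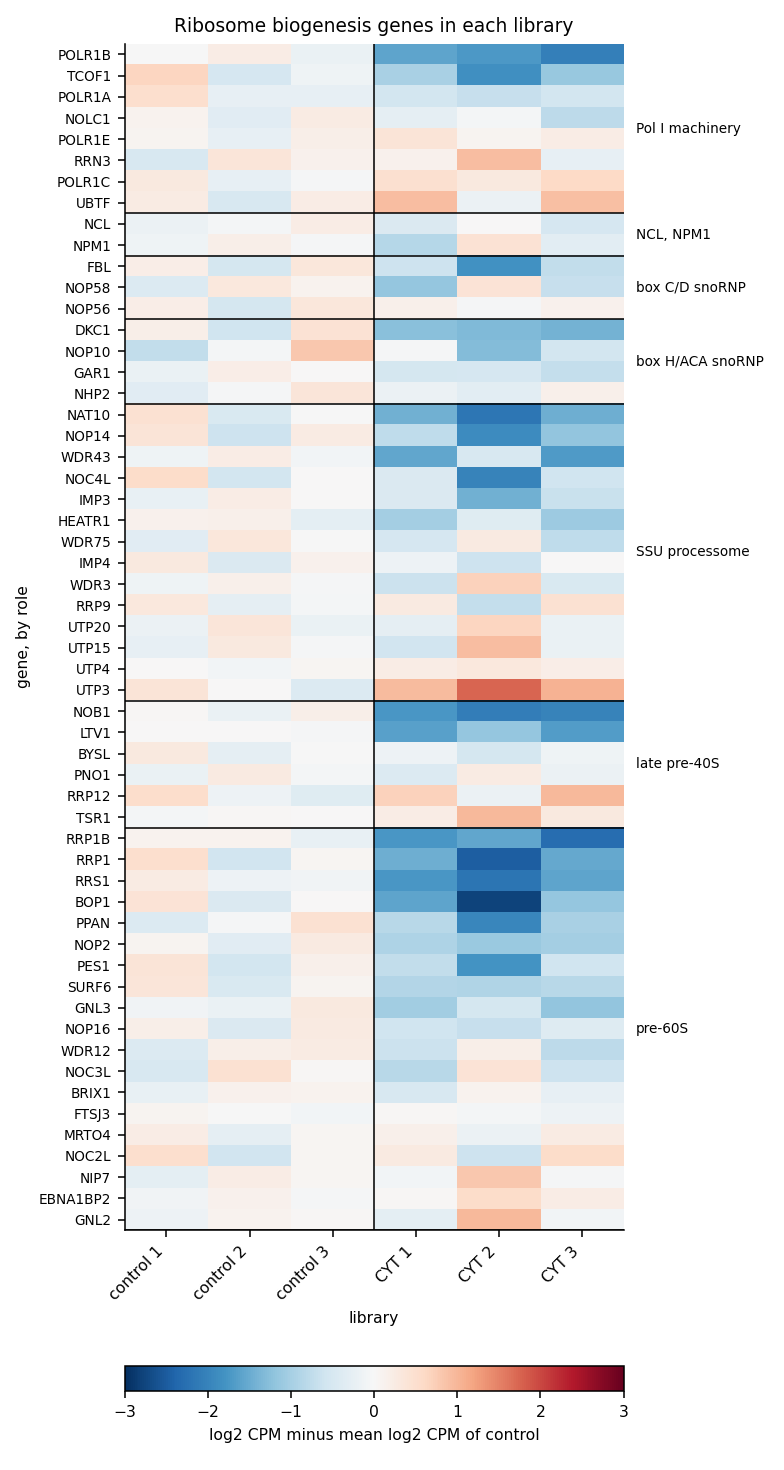
Colour gives log2 CPM minus the mean log2 CPM of control for each of the 56 genes (rows, by role) in each of the 6 libraries (columns). NOB1, RRP1B, RRS1 and POLR1B are blue in all 3 CYT libraries, while NPM1, NOP58, WDR3, UTP15 and GNL2 are blue in CYT 1 and 3 and red in CYT 2.

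Some of the promoters of these genes held a sequence that had no part in choosing them. RefSeq promoters (GRCh38.p14, 250 bases before to 50 bases after the start site) were at hand for 48 of the 56 genes. Only the first promoter listed for a symbol was used, and positions hold for that start site. The GENCODE 29 annotation of some of the genes reaches further upstream, as in NOP2 and PES1. The E-box CACGTG, the site that MYC and related factors are known to bind, reads the same on both strands and was present in 19 of the 48 promoters (39.6%). It was present in 7.43% of 27305 promoters of all genes and in 10.2% of the 10047 promoters of protein-coding genes tested here. Of 3 other motifs searched on both strands, GGGCGG was in 77.1% of the 48 promoters and 70.8% of the 10047, CACGCG in 35.4% and 18.1%, and GGAAGTG in 25% and 15.3%. CACGCG shares the letters CACG with the E-box, and a match to one is not a match to the other. These are matches of letters and no measure of binding.

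Most of the E-boxes lay near the start site. Of 21 in the 48 promoters, 17 (81.0%) began between base -20 and base 40 from the start site, counting the first transcribed base as 1. In the promoters of protein-coding genes tested, 231 of 1158 did (19.9%), and this window holds 20.3% of the possible positions. The window was set after the positions were seen. Of the 10 genes called lower that have a promoter in the table, 5 hold the E-box. They are shown with up to 12 bases on either side and the E-box in capitals, because these are the called genes that carry it, with GRCh38.p14 position and strand.
NAT10 (chr11:34105602-34105631, plus): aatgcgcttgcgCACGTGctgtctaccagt
LTV1 (chr6:143843354-143843383, plus): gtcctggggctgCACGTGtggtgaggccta
NOP14 (chr4:2963374-2963403, minus): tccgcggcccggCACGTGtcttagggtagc
NOP2 (chr12:6568242-6568268, minus): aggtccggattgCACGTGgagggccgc
WDR43 (chr2:28894658-28894687, plus): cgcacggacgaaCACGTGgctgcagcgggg

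The first base of the E-box lies at -15 in NAT10, 29 in LTV1, 16 in NOP14, 36 in NOP2 and 4 in WDR43. Genes that were not called carry it at like places, as these 4 show, chosen for their different roles after the positions were seen.
FBL (chr19:39846356-39846385, minus): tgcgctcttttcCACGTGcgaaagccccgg
UTP20 (chr12:101280083-101280112, plus): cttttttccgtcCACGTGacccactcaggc
PES1 (chr22:30591880-30591909, minus): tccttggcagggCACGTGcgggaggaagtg
PNO1 (chr2:68157885-68157914, plus): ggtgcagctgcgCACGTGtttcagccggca

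Genes with and without the E-box are given side by side, with no test of their difference. The 19 with it had a median log2 fold change of -0.29 with 5 called lower (26.3%), and the 29 without it had a median of -0.29 with 5 called lower (17.2%) and UTP3 called higher. Over all protein-coding genes tested that have a promoter, 16.3% of the 1022 with an E-box and 14.3% of the 9025 without were called lower. NOB1, the gene with the largest fall, has no E-box in its 300 bases. Its last 120 bases before the start site are set beside those of NAT10 to show the contrast, with the E-box in capitals.
NOB1 (chr16:69754927-69755046, minus): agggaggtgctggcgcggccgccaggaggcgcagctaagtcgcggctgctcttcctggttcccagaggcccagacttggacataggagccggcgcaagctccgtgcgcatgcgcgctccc
NAT10 (chr11:34105509-34105628, plus): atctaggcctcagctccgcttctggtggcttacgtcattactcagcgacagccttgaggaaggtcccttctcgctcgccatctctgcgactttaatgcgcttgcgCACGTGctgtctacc

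**Figure D4:**
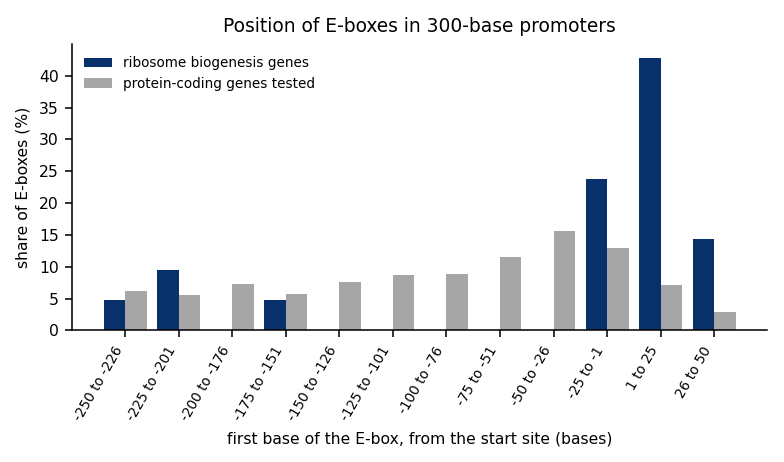
Share of E-boxes (y axis, %) by the position of their first base from the start site (x axis, bins of 25 bases) for the 21 E-boxes of the 48 promoters and the 1158 of protein-coding genes tested. The bin from 1 to 25 holds 42.9% of the former and 7.17% of the latter.

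Among the 8 genes of Pol I transcription, 2 fell, POLR1B and TCOF1, and 0 rose, where 12.9% of all genes were called lower and 15.7% higher. The median of the 8 genes was -0.06, a sign that changed to 0.089 under upper-quartile normalization. POLR1B, the second-largest subunit of Pol I and part of its active centre, had 50.5, 59.1 and 44.0 CPM in control replicates 1 to 3 and 17.1, 15.5 and 12.3 CPM in CYT replicates 1 to 3. The groups were well apart, with 51.2 ± 7.59 CPM in control and 14.9 ± 2.44 CPM in CYT (SD, n = 3 each). Its log2 fold change was -1.77 with SE 0.30 and an edgeR adjusted p of 0.00282. POLR1A, the largest subunit and partner of POLR1B, had 149, 88.8 and 88.8 CPM in control and 72.0, 64.8 and 72.2 CPM in CYT. The groups did not overlap, with CYT lower, yet the gene was not called (edgeR log2 fold change -0.64 with SE 0.31 and adjusted p = 0.150).

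TCOF1 encodes treacle, a nucleolar scaffold of rRNA transcription that is mutated in Treacher Collins syndrome. It had 206, 92.4 and 120.3 CPM in control and 67.4, 36.7 and 59.9 CPM in CYT. Replicate 2 was the lowest in both groups, and the groups did not overlap (edgeR log2 fold change -1.35 with SE 0.39 and adjusted p = 0.0273). The call was lost without control replicate 1, control replicate 3 or CYT replicate 3, with adjusted p up to 0.111 from edgeR.

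The factors that bring Pol I to the rRNA genes were not called. UBTF, the protein that coats active rRNA genes, had 163, 97.1 and 159.7 CPM in control and 261, 121 and 256 CPM in CYT. CYT replicates 1 and 3 were above all controls and CYT replicate 2 was within them (edgeR log2 fold change 0.61 with SE 0.37 and adjusted p = 0.249). UBTF was called higher without CYT replicate 2 and with the GC content and length correction, with or without the replicate block. RRN3, which joins Pol I to the promoter, had 18.3, 32.9 and 28.2 CPM in control and 28.3, 49.2 and 21.8 CPM in CYT (edgeR log2 fold change 0.33 with adjusted p = 0.560), and its groups overlapped. Its 3 named pseudogenes together held 10.1% as many counts as RRN3, and how the counting treated reads shared with them is not known. PDXDC1 overlaps RRN3 on the opposite strand and held 5809 counts over all libraries, against 2676 for RRN3, and the use of strand in the counting is not known.

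The other Pol I genes also were not called. POLR1E, a subunit of Pol I and the gene of this group with the highest mean FPKM, had 87.6, 69.7 and 93.5 CPM in control and 109, 87.3 and 97.5 CPM in CYT, which overlap (edgeR log2 fold change 0.23 with adjusted p = 0.566). POLR1C, shared by Pol I and Pol III, had a log2 fold change of 0.45, and NOLC1, a partner of the snoRNA particles, had -0.36. POLR1C overlaps 5 genes on the opposite strand, of which YIPF3 and XPO5 each held more counts than POLR1C itself, and the use of strand in the counting is not known.

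NCL and NPM1, the abundant nucleolar RNA and histone chaperones nucleolin and nucleophosmin, were not called. NPM1 had the highest FPKM of the 56 genes (234 in control, 215 in CYT). It had 1405, 1724 and 1492 CPM in control and 841, 2061 and 1235 CPM in CYT, so that the CYT libraries held both the lowest and the highest value. Its log2 fold change was -0.16 with SE 0.34 and an edgeR adjusted p of 0.767, and 45 pseudogenes named after it held 14.1% as many counts. NCL had 307, 335 and 406 CPM in control and 256, 348 and 246 CPM in CYT, and CYT replicate 2 lay within the controls (edgeR log2 fold change -0.30 with SE 0.28 and adjusted p = 0.457).

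The genes FBL, NOP56 and NOP58 encode core proteins of box C/D particles, which guide 2′-O-methylation of rRNA. In edgeR's test 0 of these 3 were called, and 1 had an unadjusted p under 0.05, as did 40.9% of all genes tested. FBL, the methyltransferase fibrillarin, had 339, 204 and 371 CPM in control and 190.3, 83.6 and 176 CPM in CYT. Each CYT library was below each control library, and the mean was 304 ± 88.5 CPM against 150.1 ± 58.1 CPM (SD, n = 3 each). The log2 fold change was -1.02 with SE 0.38 and an edgeR adjusted p of 0.0743. With the replicate block FBL was called lower (edgeR log2 fold change -1.06 with adjusted p = 0.00825). NOP58, with a log2 fold change of -0.35, and NOP56, with 0.03, were not called, although all 3 proteins sit in the same particle. NOP58 was called lower only without CYT replicate 2 among the 16 alternatives.

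Of the 4 box H/ACA proteins, which guide pseudouridylation and also bind telomerase RNA, DKC1 fell (25%, with 12.9% of all genes). DKC1 is dyskerin, the pseudouridine synthase of the particle. It had 55.2, 32.1 and 65.8 CPM in control and 20.5, 19.4 and 18.1 CPM in CYT. The CYT libraries lay close together, at 19.3 ± 1.16 CPM, below the widely spread controls at 51.0 ± 17.2 CPM (SD, n = 3 each). The log2 fold change was -1.40 with SE 0.34 and an edgeR adjusted p of 0.0133, and the call was lost without control replicate 3 or CYT replicate 3, with adjusted p up to 0.0643 from edgeR. Its partners GAR1 (-0.58), NOP10 (-0.68) and NHP2 (-0.12, with 0.02 under upper-quartile normalization) were not called. With the GC content and length correction GAR1 and NOP10 were called lower, and GAR1 also with the block added. NOP10 had the highest FPKM of the group (106 in control, 65.8 in CYT). Its 56.9, 90.9 and 167 CPM in control and 92.2, 38.8 and 64.5 CPM in CYT overlapped (adjusted p = 0.286 from edgeR).

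Of the 14 genes of the SSU processome, NAT10, NOP14 and WDR43 fell (21.4%, with 12.9% of all genes), UTP3 rose (7.14%, with 15.7% of all genes) and 10 were not called. The median of the 14 was -0.27, with -0.12 under upper-quartile normalization and -0.56 without CYT replicate 2. NAT10, the acetyltransferase that makes N4-acetylcytidine in 18S rRNA, had 109, 57.9 and 78.0 CPM in control and 29.1, 17.5 and 28.7 CPM in CYT. The highest CYT library was below the lowest control library. The log2 fold change was -1.70 with SE 0.36 and an edgeR adjusted p of 0.00716, and NAT10 was called in all 16 alternatives. NOP14, a structural protein of the processome, had 95.9, 47.7 and 87.7 CPM in control and 43.7, 19.9 and 32.4 CPM in CYT. It changed by -1.27 on the log2 scale with SE 0.39 and an edgeR adjusted p of 0.0379. The gap between its groups was narrow, with 47.7 CPM in control replicate 2 against 43.7 CPM in CYT replicate 1.

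WDR43, the human counterpart of yeast Utp5, had 58.2, 74.6 and 60.5 CPM in control and 21.6, 45.9 and 19.7 CPM in CYT. Its log2 fold change was -1.15 with SE 0.38 and an edgeR adjusted p of 0.0472. CYT replicate 2 was above the other CYT libraries, and without it the log2 fold change was -1.65. Leaving out any other library ended the call of WDR43, with an edgeR adjusted p of up to 0.153. The call of NOP14 was lost without control replicate 1, control replicate 3 or CYT replicate 3, with an edgeR adjusted p of up to 0.121. Upper-quartile normalization and the filter at a mean of 5 CPM also ended both calls, with edgeR adjusted p of 0.0795 and 0.0738 for WDR43 and 0.0560 and 0.0551 for NOP14.

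UTP3 (also called SAS10), which binds the U3 snoRNA particle, was the only one of the 56 genes called higher. It had 36.6, 28.6 and 21.2 CPM in control and 53.9, 94.8 and 58.2 CPM in CYT. The means were 28.8 ± 7.67 and 69.0 ± 22.5 CPM (SD, n = 3 each), with no overlap, and the log2 fold change was 1.26 with SE 0.35 and an edgeR adjusted p of 0.0240. The call was lost without control replicate 2 or control replicate 3, where edgeR gave an adjusted p of 0.0618 and 0.116. UTP3 spans 2073 bases on chromosome 4 (GRCh38, 70688479 to 70690551), its longest transcript has the same 2073 bases, and no other annotated gene overlaps it.

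The remaining processome genes were not called. RRP9, a protein of the U3 particle, had the highest mean FPKM of this group (103 in control, 108 in CYT). RRP9 had 201, 136 and 157 CPM in control and 195, 98.6 and 222 CPM in CYT, which overlap (edgeR log2 fold change 0.06 with adjusted p = 0.912). IMP3, a partner of U3 snoRNA, had a log2 fold change of -0.80 without overlap (adjusted p = 0.0955 from edgeR). HEATR1 (-0.80) and NOC4L (-0.92), further proteins of the pathway to 18S rRNA, were called lower with the replicate block (edgeR adjusted p = 0.0310 and 0.0148). WDR75, IMP4, WDR3, UTP20, UTP15 and UTP4 had log2 fold changes from -0.29 to 0.25, and those of WDR3, RRP9, UTP15 and UTP20 changed sign in at least 1 alternative.

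Late in 40S assembly, NOB1 and LTV1 fell (33.3%, with 12.9% of all genes) and the other 4 genes of the group were not called. The median of the group was -0.19, beside 0.01 for all genes. NOB1, the nuclease that makes the final cut of 18S rRNA in the cytoplasm, had 106, 91.0 and 117 CPM in control and 31.1, 24.8 and 26.1 CPM in CYT. Both groups were tight, with 105 ± 13.1 CPM in control and 27.4 ± 3.29 CPM in CYT (SD, n = 3 each). The log2 fold change of -1.93 with SE 0.29 and an edgeR adjusted p of 0.00174 was the largest fall of the 56 genes, and over the 16 alternatives it ran from -2.04 to -1.78, called in each. NOB1 lies on chromosome 16 (GRCh38, 69741867 to 69754940, minus strand).

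LTV1, an export and maturation factor of the pre-40S particle, had 25.4, 25.7 and 24.8 CPM in control and 8.23, 11.3 and 7.92 CPM in CYT. Its controls were the tightest shown here (25.3 ± 0.477 CPM, SD, n = 3), and its log2 fold change was -1.46 with SE 0.31 and an edgeR adjusted p of 0.00720. PNO1, which binds the same particle as NOB1 and had a control FPKM of 24.3, had 67.0, 92.2 and 74.1 CPM in control and 57.7, 91.9 and 68.8 CPM in CYT (edgeR log2 fold change -0.09 with adjusted p = 0.845), and its sign turned under upper-quartile normalization. BYSL, another factor of this step, had a log2 fold change of -0.28, TSR1 had 0.54 and the export factor RRP12 had 0.52. TSR1 and RRP12 were called higher in 1 and 2 of the 16 alternatives, each with the GC content correction.

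**Figure D5:**
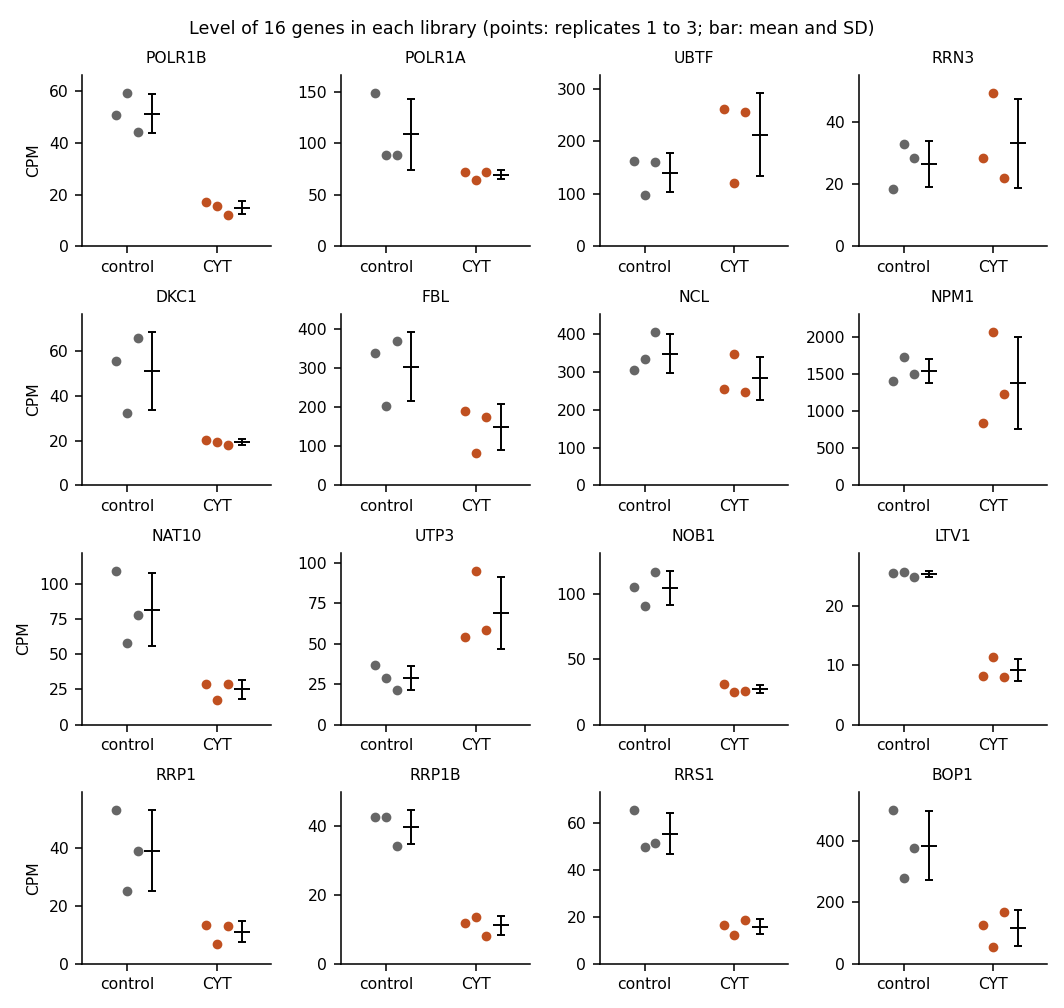
CPM (y axis, from 0) of 16 of the genes in the 3 control (grey) and 3 CYT (orange) libraries, with the mean and SD beside the points. POLR1B, DKC1, NAT10, NOB1, LTV1, RRP1, RRP1B, RRS1 and BOP1, and also POLR1A and FBL, which were not called, show no overlap of the groups with CYT lower, UTP3 shows none with CYT higher, and NCL, NPM1, UBTF and RRN3 overlap.

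Of the 19 pre-60S genes, 6 fell (31.6%, with 12.9% of all genes) and 0 rose (with 15.7% of all genes), and the median was -0.59, beside 0.01 for all genes. RRP1 and RRP1B, related nucleolar proteins of the early 60S particle, lie on the same strand of chromosome 21 with their starts 129965 bases apart, and both fell. RRP1B had 42.7, 42.6 and 34.2 CPM in control and 11.7, 13.5 and 8.16 CPM in CYT (edgeR log2 fold change -1.84 with SE 0.32 and adjusted p = 0.00318). RRP1 had 53.0, 25.1 and 39.0 CPM in control and 13.5, 6.74 and 12.8 CPM in CYT (edgeR log2 fold change -1.82 with SE 0.40 and adjusted p = 0.00896). In neither gene did the groups overlap, although replicate 2 was the lowest for RRP1 in both groups. Both were called in all 16 alternatives.

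RRS1, which helps to place the 5S rRNA particle in the 60S subunit, had 65.4, 49.6 and 51.4 CPM in control and 16.5, 12.1 and 18.5 CPM in CYT. The log2 fold change was -1.82 with SE 0.31 and an edgeR adjusted p of 0.00287. It too was called in all 16 alternatives, and its control FPKM of 32.1 fell to 9.19. BRIX1, another factor of 60S assembly, was not called (edgeR log2 fold change -0.20 with adjusted p = 0.648).

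BOP1, PES1 and WDR12 form the PeBoW complex, which processes the precursor of 28S and 5.8S rRNA. BOP1 had 499, 277 and 376 CPM in control and 124, 54.4 and 168 CPM in CYT, with no overlap (edgeR log2 fold change -1.73 with SE 0.43 and adjusted p = 0.0152). Its call was lost only without control replicate 1 among the 16 alternatives (edgeR adjusted p = 0.0554). PES1 had a log2 fold change of -1.01 without overlap and was not called (adjusted p = 0.0805 from edgeR), though with the replicate block it was (adjusted p = 0.00922 from edgeR). WDR12 had a log2 fold change of -0.38 with overlapping groups (adjusted p = 0.446 from edgeR). In FPKM, BOP1 went from 77.2 to 23.4, PES1 from 16.9 to 8.46 and WDR12 from 5.62 to 4.40, so BOP1 had the highest level of the 3 in both groups.

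PPAN, an early 60S factor, had 37.0, 48.3 and 68.0 CPM in control and 28, 12.8 and 25.2 CPM in CYT (edgeR log2 fold change -1.22 with SE 0.38 and adjusted p = 0.0406). PPAN shares its locus and strand with the readthrough gene PPAN-P2RY11, whose counts were 822, 489 and 344 in control and 124, 0 and 263 in CYT, so the split of reads between them is uncertain. NOP2, which methylates cytosine in 28S rRNA, had 101, 75.4 and 116 CPM in control and 50.8, 44.3 and 47.3 CPM in CYT. The CYT libraries of NOP2 were close together and below the controls (edgeR log2 fold change -1.04 with SE 0.29 and adjusted p = 0.0255). With a library left out, PPAN kept its call only without CYT replicate 2 and NOP2 only without CYT replicate 2 or control replicate 2, and the adjusted p from edgeR reached 0.152 for PPAN and 0.109 for NOP2. PPAN also lost its call under upper-quartile normalization and with the filter at a mean of 5 CPM, where the edgeR adjusted p was 0.0643 and 0.0620.

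The remaining 10 of the 13 pre-60S genes that were not called had smaller changes than those that fell. GNL3 (nucleostemin, -0.91) and SURF6 (-0.91) had groups without overlap and adjusted p of 0.0528 and 0.0559 from edgeR, and both were called lower with the replicate block (0.0303 and 0.0279 from edgeR). NOP16 had a log2 fold change of -0.59 and was called lower in both fits with the GC content correction. The log2 fold change was -0.29 for NOC3L, -0.06 for FTSJ3, 0.08 for NOC2L, 0.28 for NIP7, 0.28 for EBNA1BP2 and 0.31 for GNL2. MRTO4, known to hold the place of the ribosomal stalk protein, had a high control FPKM (56.8). It had 209.9, 149 and 188 CPM in control and 202, 159 and 212 CPM in CYT, which overlap (edgeR log2 fold change 0.07 with adjusted p = 0.877). The signs of FTSJ3, MRTO4, NOC2L, NIP7 and GNL2 turned in at least 1 alternative.

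Together, the 20 genes of 40S assembly (SSU processome and late pre-40S) had 5 genes called lower and a median of -0.27, beside 6 of 19 and -0.59 for the 60S side and 12.9% and 0.01 for all genes. No test of the difference between the sides was made. In the lists of other genes described below, 27.5% of 40 factors of 40S assembly were called lower, with a median of -0.33. Of 45 factors of 60S assembly 28.9% were, with a median of -0.45. Across the 56 genes, the log2 fold change had a Spearman rho of -0.24 with exonic GC content, 0.12 with the length of the longest transcript and 0.04 with the control FPKM. The 56 genes share libraries and are not independent. Over all genes tested the rho was -0.10, -0.09 and -0.34. The control level also enters the log2 fold change, so noise in control alone can give a negative rho with control FPKM. With the mean FPKM of all libraries the rho was 0.23 for the 56 genes and -0.10 for all genes.

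The lists of other genes of the pathway and of Pol III held 130 genes, all tested, of which 29 were called lower (22.3%) and 5 higher (3.85%), with a median log2 fold change of -0.45. Among all genes tested, 12.9% were lower and 15.7% higher. With a library left out, 12 to 46 of the 130 were called lower and 1 to 9 higher. In those fits 7.36% to 17% of all genes were lower and 10.3% to 18.6% higher. Without the 22 Pol III genes, 25 of 108 were called lower and 4 higher, with a median of -0.40. Among 45 other 60S factors, 13 fell and 1 rose. NLE1, a Notchless homologue of the pre-60S particle, fell by 2.96 on the log2 scale (adjusted p = 0.00102 from edgeR), PWP1 by 2.05 (0.00189), and WDR18 changed by -2.45 (0.00642), while the helicase DDX24 rose (0.98, 0.0340). Among 40 other 40S factors, 11 fell, led by UTP18 (-1.79, adjusted p = 0.00274 from edgeR), NOL10 (-1.63, 0.00443) and UTP6 (-1.46, 0.00575), and the chaperone TSR2 rose (adjusted p = 0.0306 from edgeR).

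Of 14 other Pol I genes, 0 fell and 2 rose in edgeR's test (14.3%, near the 15.7% of all genes), and 4 had an unadjusted p under 0.05 (28.6%, below the 40.9% of all genes). The 2 were TTF1, the factor that ends Pol I transcription (1.59, adjusted p = 0.00843 from edgeR), and POLR2K, a small subunit shared by all 3 nuclear polymerases (1.31, 0.0125). Of 9 other snoRNA particle assembly genes, NUFIP1 alone was called, as lower (11.1% of the list, log2 fold change -0.94, adjusted p = 0.0434 from edgeR). Of 22 Pol III genes, 4 were called lower (18.2%, with 12.9% of all genes) and 1 higher, with GTF3C2 (-2.14, adjusted p = 0.00159 from edgeR), BRF2 (-1.58, 0.00521) and POLR3B (-1.34, 0.0321) lower and GTF3C4 higher (0.95, 0.0352). Beside these, 1 of 77 cytosolic ribosomal protein genes was called lower and 1 higher, with a median of -0.15, so the mRNA of the ribosome's own proteins held few calls in either direction.

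The genes also carry other RNAs. On their own strand, 9 of the 56 genes enclose 28 annotated snoRNA or scaRNA genes (GENCODE 29), among them SNORD110, SNORA51, SNORD86, SNORD56 and SNORD57 in NOP56 and SNORA36A and SNORA56 in DKC1. None of the 28 had more than 13 counts over all 6 libraries, too few to compare the groups. Another annotated gene, small RNAs aside, overlaps 32 of the 56 genes, and 7 of the 14 genes called lower have no such neighbour.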

How the data were processed

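RNA of 3 control and 3 CYT-treated samples was sequenced by the authors, who separated mRNA, removed low-quality, adapter and rRNA reads, and aligned with Hisat2 (version not given in the sources used here) to hg38. FastQC 0.12.1 is named in the submitters' processing notes. The authors deposited raw counts per gene and FPKM, the latter from Stringtie per the methods. The counting program and its use of strand are not given in the sources used here.

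Counts were fitted with edgeR 4.0.16 in R 4.3.3: filterByExpr (minimum count 10), TMM, the quasi-likelihood test (CYT minus control), and Benjamini-Hochberg adjustment over 15572 genes. A standard error is the size of the log2 fold change over the root of F. The methods speak of independent experiments for the study's data in general, and neither they nor the labels say it of these libraries, so p-values measure the spread between libraries, which may be technical. Replicates differed by more than sampling noise (chi-square per gene 25.0 or more).

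The genes, roles and lists were chosen with earlier results of these data known. Per-library values are given for called genes, the gene of highest mean FPKM in each role, and NCL, NPM1, FBL, POLR1A, POLR1B, UBTF and RRN3. From each list of other genes, up to 3 lower and 3 higher are named. The list of cytosolic ribosomal proteins was formed by symbol after the data were seen.

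Same-numbered libraries deviated together (correlations of 0.237, 0.510 and 0.137 over genes), so the replicate number was tried as a block. The main fit held no block, and no label states a shared culture or day. Control 1 correlated more with CYT 3 (0.358) than with CYT 1, and control 3 more with CYT 1 (0.223) than with CYT 3. Whether the numbers mark pairs is therefore not known. Alternatives were other normalizations, filters, DESeq2 1.42.0, limma 3.58.1 on log2(FPKM + 1) and log2(FPKM + 0.1), the replicate block, GC content and length correction, and leaving out each library. Loci were read from the deposited table, and 53 of the 56 equal those of GENCODE 29. GC content came from its longest transcripts.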

Additional observations from a re-analysis of the deposited data

How the results depend on the processing

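The number of the 56 genes called lower, 14, was 11 to 20 under the other normalizations, filters and tools and the replicate block, 23 with the GC content and length correction, 21 with the block added to that, and 8 to 18 when a library was left out. Of all genes, 12.9% were lower in the main fit and 6.81% to 19.8%, 22.2%, 21.7% and 7.36% to 17% in these. The number called higher, 1, was 3 with that correction, 4 with the replicate block added to it, and 0 to 2 with a library left out. The number past both DEG criteria ran from 8 to 14 with a library left out. Of the 14 genes, 7 were called in all 16 alternatives.

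The replicate block alone called 20 genes lower (35.7%, with 19.8% of all genes) and 1 higher. Among the 130 other genes it called 46 lower and 9 higher, with 20% of all genes higher. The 29 lower and 5 higher of those were 51 and 16 with the GC content and length correction (22.2% and 23.9% of all genes), 53 and 15 with the block added (21.7% and 23.3%), and 12 to 46 and 1 to 9 with a library left out (7.36% to 17% and 10.3% to 18.6%). Upper-quartile normalization called 8 of them higher and no filter 2, with 18.5% and 9.2% of all genes higher.

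Upper-quartile normalization shifted the median of all genes to 0.16. The median of the 56 genes was then -0.18, which is -0.33 from that of all genes. This distance was also -0.33 without it, but -0.82 without a filter, where the median of all genes was 0.41, and -0.52 with DESeq2 or without CYT replicate 2, and from -0.47 to -0.24 in the other alternatives. It gave role medians of 0.089 for Pol I, -0.21 for box C/D, -0.12 for the SSU processome and -0.44 for pre-60S genes. The median of the 56 genes was -0.41 without a filter, -0.22 for genes averaging 5 CPM or more, -0.39 with the GC correction and block, and -0.56 to -0.22 over the fits without 1 library. Box C/D and box H/ACA medians were -0.52 and -0.998 with the GC correction, and -0.56 and -0.992 with the block as well. Over the fits without 1 library, medians ran from -0.30 to 0.050 for Pol I, -0.73 to -0.072 for box C/D, -0.56 to -0.24 for the SSU processome and -0.79 to -0.48 for pre-60S genes.

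The sign turned only in genes that were not called. Upper-quartile normalization gave log2 fold changes of 0.019 for NHP2, 0.14 for WDR3, 0.052 for PNO1 and 0.094 for FTSJ3, RLE size factors 0.014 for WDR3, and no filter -0.034 for NOP56. Genes averaging 5 CPM or more gave 0.095 for WDR3, 0.0089 for PNO1 and 0.047 for FTSJ3. The replicate block gave -0.00028 for RRP9, the GC correction 0.089 for FTSJ3, and the GC correction with block -0.0052 for UTP15 and 0.076 for FTSJ3. Over the fits without 1 library, WDR3 ran from -0.55 to 0.22, NHP2 from -0.29 to 0.061, PNO1 from -0.31 to 0.043, FTSJ3 from -0.12 to 0.015, NOP56 from -0.20 to 0.18, RRP9 from -0.13 to 0.34, UTP15 from -0.39 to 0.45, UTP20 from -0.26 to 0.28, MRTO4 from -0.068 to 0.19, NOC2L from -0.17 to 0.35, NPM1 from -0.58 to 0.094, RRN3 from -0.089 to 0.56, NIP7 from -0.089 to 0.43 and GNL2 from -0.20 to 0.53. The block changed no member's call beyond the 6 genes it added (FBL, PES1, NOC4L, SURF6, GNL3 and HEATR1).

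Depth kept none of the 56 genes from being tested. For each of these changes the cause was not tested.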
